A study of Mus musculus with 9 samples.

Results

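The colon of mice that received the channel-blocking peptide GsMTx4 during experimental colitis was set against the colon of untreated mice, to see what still differed from normal tissue. The 6 libraries are GsMTx4 1 to 3 and Control 1 to 3, out of 9 in the series; the other 3, from mice with colitis and no peptide (DSS 1 to 3), are given beside them for reference. All mice were wild-type C57BL/6J and 8 weeks old. Control mice drank normal water, and no injection is described for them. GsMTx4 mice drank 2.5% dextran sulfate sodium (DSS) for 7 days and were given GsMTx4 into a vein at 10 mg/kg, on day 2, day 4 and day 6. DSS mice drank the same polymer and were injected with solvent on those days. Colitis, the injections and the peptide therefore cannot be told apart in a difference between GsMTx4 and Control. Whether each library stands for a different mouse is not stated in the labels, and the p-values cover only the spread between these samples, which may be technical. Values are FPKM (fragments scaled to transcript length and library size), so the depth behind them is unknown. The table lists 35315 genes, and limma on log2(FPKM + 1) tested the 13816 that reached 1 FPKM in 3 or more of the 6 libraries. Where values of both groups stand together, those of Control 1 to 3 come before those of GsMTx4 1 to 3.

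DSS strips and inflames the lining of the colon: the epithelium loses its barrier, neutrophils and monocytes enter, and crypts regenerate from surviving stem and progenitor cells. GsMTx4, a peptide from tarantula venom, blocks cation channels that open when the membrane is stretched, among them Piezo1, which epithelial and immune cells use to sense pressure. The healthy colon keeps a steady interferon-response programme, displays antigen on MHC class I, follows the body's circadian clock, and makes little of most plasma proteins. Most plasma proteins, such as albumin, are products of hepatocytes in the liver.

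All 10 colon markers checked were present in the 6 libraries at 5.21 FPKM or more, among them Lgals4, Epcam, Vil1 and Krt20. Library sums ran from 349125 to 440935 FPKM, the highest being GsMTx4 3. In that library, differences from the Control mean correlated negatively with transcript length across genes (Spearman's rho -0.382, against 0.160 and 0.127 in GsMTx4 1 and 2; genes are not independent). Its 2511 tested genes over 5 kb had a median difference of -0.38 and its 2034 genes under 1 kb one of 0.14. On the first principal component of all 9 libraries (42.7% of the variance) the Control libraries lay between -28.9 and -27.4 and the DSS libraries between 36.5 and 48.6. GsMTx4 2 and GsMTx4 3 lay at -22.8 and -21.8, and GsMTx4 1 at -2.00, toward the DSS libraries. On the second component (17.0%) GsMTx4 3 lay at -44.8, farthest from 0 of all 9 libraries. There GsMTx4 1 and 2 lay at 1.10 and 6.09, and the Control libraries between 3.80 and 15.6. Fewer cells of a type and less RNA per cell cannot be told apart in bulk tissue.

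Few genes passed the test against Control. Of 13816 genes, 27 rose (0.195%) and 7 fell (0.0507%) at an adjusted p under 0.05 by limma, while 377 (2.73%) and 1050 (7.6%) had an unadjusted p under 0.05. Of the genes that rose, 13 are on a list of hepatocyte transcripts, most of them for plasma proteins. The others include Gc, Orm1, Serpina1c, Serpina1d, Serpina1e, Fabp1, Hamp and Hamp2, which the list does not hold although they too are expressed in liver. The 13 therefore do not count every liver-expressed gene among the 27. The clock output gene Dbp rose as well, as did Chil3, Duoxa2 and Ly6g, which also stood above Control in DSS. Among the genes that fell were the kinase gene Nek7, the MHC class I gene H2-Q7 and the scaffold gene Pdzd7. Against DSS, in the same fit, 937 genes were higher (6.78%) and 680 lower (4.92%). Of the 27 genes that rose, 20 stood under 1 FPKM in every Control library, so they entered the test only through their GsMTx4 values and could only differ upward. With the filter set at a mean of 5 FPKM, 3 genes passed higher (Alb, Dbp and 2010109I03Rik) and 2 lower (Nek7 and Gm23935).

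The GsMTx4 libraries all lay above every Control library for 677 genes (4.9%) and below every Control library for 2051 (14.8%). Counts of list members below are to be read against these shares. The balance depended on scaling, with 305 and 2660 genes after rescaling each library to TPM and 1339 and 1209 by median-of-ratios scaling. With 1 library fewer, separation is reached more easily, and it was met by 1809 and 3256 genes without GsMTx4 3. Leaving out GsMTx4 3 also raised the passing genes to 63 higher and 13 lower. Without Control 2 there were 13 and 2, without Control 3 13 and 1, without GsMTx4 1 18 and 2, without GsMTx4 2 17 and 2, and without DSS 1, which enters through the shared spread, 22 and 4. Weighting samples by their spread gave 92 and 83. The calls of Alb, Apoa1, Apoa2, Ahsg, Mup3, Mup20, Serpina1c, Serpina1e, Serpina3k, Gc, Hamp, Dbp and Nek7 held in every analysis that tested them. Of these, only Alb, Apoa2, Dbp and Nek7 had a Control library at 1 FPKM or more. The others entered only through their GsMTx4 values and could only differ upward. With the filter at a mean of 5 FPKM, only Alb, Dbp and Nek7 of these genes were tested.

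**Figure D1:**
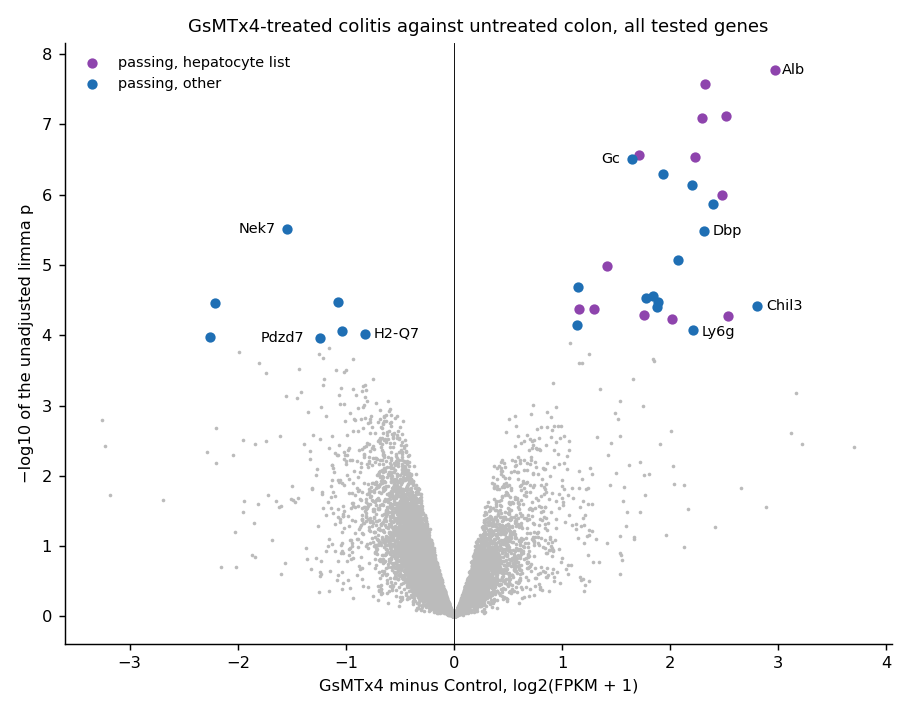
Each point is one of the 13816 tested genes, with the GsMTx4 minus Control difference in log2(FPKM + 1) on the horizontal axis and −log10 of the unadjusted limma p on the vertical axis. Purple points passed and are on the hepatocyte list (13 genes), blue points passed and are not (21 genes); the passing genes lie mostly to the right, with Alb at the top.

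Many plasma protein genes of the liver were present in all 3 GsMTx4 libraries at low levels and stood near 0 in Control. Albumin (Alb, chromosome 5, 90460897 to 90476602, GRCm38), the main protein of blood plasma, stood at 1.22, 0.825 and 0.753 FPKM in Control 1 to 3 and at 13.2, 14.4 and 14.6 FPKM in GsMTx4 1 to 3. The groups did not overlap, and Alb rose by 2.97 ± 0.16 on the log2(FPKM + 1) scale (SE, adjusted p = 0.000185 by limma). In DSS it was lower than in Control, at 0.0719, 0.479 and 0.111 FPKM, and the GsMTx4 minus DSS difference was 3.64 ± 0.16 (adjusted p = 3.73e-05 by limma).

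The apolipoprotein genes Apoa1 and Apoa2, which encode the main proteins of high-density lipoprotein, followed. Apoa2 stood at 1.06, 0.759 and 1.11 FPKM in Control and 7.55, 10.1 and 7.23 FPKM in GsMTx4, a rise of 2.23 ± 0.17 (adjusted p = 0.000619 by limma). Apoa1 was listed at 0, 0.0391 and 0.0392 FPKM in Control and 4.15, 4.68 and 3.57 FPKM in GsMTx4. Every GsMTx4 value of these genes exceeded every Control and DSS value.

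Several genes were listed at 0 in all 3 Control libraries, so no fold is given for them. Serpina3k, a serine protease inhibitor of plasma, was at 3.94, 4.62 and 5.78 FPKM in GsMTx4 and at 0.0292, 0.337 and 0.0848 FPKM in DSS. Mup3, a major urinary protein gene, was at 5.38, 5.99 and 2.88 FPKM in GsMTx4 and at 0, 0.193 and 0 FPKM in DSS. Gc, which encodes the vitamin D-binding protein and is not on the hepatocyte list, was at 1.91, 2.24 and 2.23 FPKM in GsMTx4 and listed at 0 in every DSS library (chosen after its values were seen). Neither Control nor DSS held these transcripts at a level comparable with GsMTx4.

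The fibrinogen chains Fgb and Fgg, which form clots, were listed at 0 in Control and stood at 1.96, 1.48 and 4.26 FPKM (Fgb) and 2.1, 2.08 and 5.89 FPKM (Fgg) in GsMTx4, highest in GsMTx4 3. The haem scavenger gene Hpx stood at 0.0966, 0.181 and 0.0197 FPKM in Control and 2.48, 5.42 and 10.4 FPKM in GsMTx4, again highest in GsMTx4 3 (adjusted p = 0.0274 by limma). These calls were lost without any 1 library except GsMTx4 2 or 3 for Fgb (adjusted p up to 0.154), except GsMTx4 3 for Fgg (up to 0.154) and except GsMTx4 1 or 3 for Hpx (up to 0.142, limma). The alpha-1-antitrypsin genes Serpina1a to Serpina1e all passed, Serpina1e at 0.249, 0 and 0.0449 FPKM in Control and 3.98, 4.88 and 5.46 FPKM in GsMTx4. These 5 paralogs are near-identical copies, and the Mup genes are a family of related copies that differ in how alike they are. Reads could have been split among copies, so the values of single members are uncertain.

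Hamp, the gene of the iron hormone hepcidin, was 0, 0.0247 and 0.118 FPKM in Control, 1.66, 0.824 and 1.57 FPKM in DSS and 3.27, 4.75 and 3.54 FPKM in GsMTx4 (a rise of 2.20 ± 0.19 over Control, adjusted p = 0.00112 by limma). Unlike Alb and Apoa1 it was already above every Control library in all 3 DSS libraries. Fabp1, a fatty acid carrier of liver and proximal gut, was 0, 0.0817 and 0 FPKM in Control and 2.48, 4.02 and 1.47 FPKM in GsMTx4 (adjusted p = 0.0227 by limma, 0.0618 corrected for transcript length and GC content, and up to 0.119 without Control 1, 2 or 3 or GsMTx4 1).

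The hepatocyte list held 25 genes, and 19 were tested, 12 of them only through their GsMTx4 values. In all, 13 passed higher. Of the 7 tested members with a Control library at 1 FPKM or more, 2 passed (Alb and Apoa2). Without regard to the filter, 21 of the 25 members lay above every Control library and 0 below, against 3.57% and 8.85% of all 35315 genes. The 4 that overlapped were Rbp4, Trf, Ttr and Ttc36. Of these, Rbp4, Trf and Ttr, which encode plasma carriers of retinol, iron and thyroid hormone, stood at 4.71 to 24.5 FPKM in Control and did not pass. The cytochrome Cyp2e1, too low to test, stood at 2.73, 1.61 and 0.841 FPKM in GsMTx4 and 0, 0.201 and 0.684 FPKM in Control. The number that passed was 7 without Control 2 or without Control 3, and 1 with the filter at a mean of 5 FPKM.

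The summed level of the hepatocyte list was 43.9 to 56.4 FPKM in Control, 30.5 to 76.2 FPKM in DSS and 97.7 to 137 FPKM in GsMTx4. Other organs that could enter a dissection were read the same way. The sum of the red blood cell list was 14.3 to 37.4 FPKM in Control and 12.5 to 16.8 FPKM in GsMTx4, and that of the skeletal muscle list 4.10 to 5.30 and 3.84 to 5.31 FPKM. These ranges overlapped between the groups. The pancreatic acinar sum (62.1 to 69.9 against 67.4 to 136 FPKM) was carried by the elastase gene Cela1, at 57.5, 64.3 and 63 against 64.9, 76 and 126 FPKM, which did not pass. The other tested member, the colipase gene Clps, was 4.12, 5.07 and 6.07 against 2.40, 2.44 and 9.76 FPKM and did not pass. The untested members reached at most 0.440 FPKM in Control and 0.0778 FPKM in GsMTx4. Among them Cela2a and Cel were listed at 0 in all 6 libraries. The source of the hepatocyte transcripts was not tested.

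**Figure D2:**
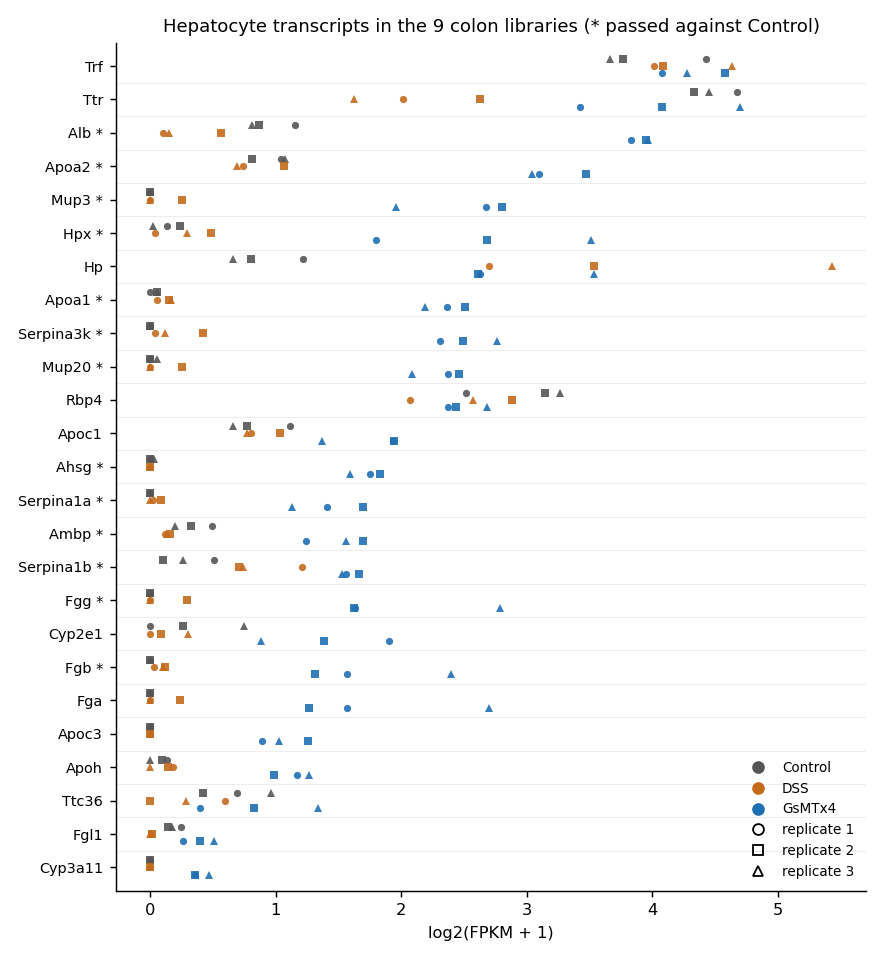
Level of the 25 genes of the hepatocyte list, in log2(FPKM + 1), with 1 point per library; grey is Control, orange DSS and blue GsMTx4, the symbol gives the replicate, and a star marks genes that passed against Control. The blue points of Alb (13.2 to 14.6 FPKM) lie clear of all grey and orange points, while those of Trf, Ttr and Rbp4 overlap the grey points.

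Of the clock genes Dbp rose, and others lay above or below every Control library without passing. The molecular clock is a feedback loop in which the activators Clock and Arntl (BMAL1) drive their own repressors, the Per and Cry genes, through E-box elements, while Nr1d1 and Nr1d2 repress Arntl. Dbp, Tef and Hlf encode output factors of the loop. Dbp (chromosome 7, 45705088 to 45710203) stood at 2.63, 1.97 and 2.98 FPKM in Control and 16, 13.2 and 20.9 FPKM in GsMTx4. Its rise of 2.31 ± 0.23 (adjusted p = 0.00345 by limma) held in each of the 21 alternative analyses, with adjusted p from 0.00178 to 0.0257. In DSS it stood at 3.62, 2.72 and 1.68 FPKM, within or near the Control range, so that the GsMTx4 libraries were the high ones (2.28 ± 0.23 against DSS, adjusted p = 0.00162, limma).

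Other output genes and repressors lay on the same side without passing. Ciart, a repressor of Clock and Arntl, was 0.452, 0.512 and 0.942 FPKM in Control and 2.94, 2.76 and 2.17 FPKM in GsMTx4 (1.15 ± 0.20, adjusted p = 0.0738 by limma). Per3 was 1.69, 2.48 and 3 FPKM in Control and 6.87, 5.09 and 4.33 FPKM in GsMTx4, and Nr1d2 11, 11.5 and 13.2 against 17.4, 19.8 and 19.2 FPKM. In DSS Per3 (1.49, 0.717 and 0.941 FPKM) and Nr1d2 (8.36, 5.77 and 5.62 FPKM) stood below Control rather than above it. Nr1d1, Per2, Cry2, Tef and Bhlhe40 also had every GsMTx4 library above every Control library.

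The activator Arntl lay on the opposite side. It stood at 8.16, 6.82 and 5.6 FPKM in Control, 4.1, 6.2 and 6.55 FPKM in DSS and 1.86, 2.03 and 3.45 FPKM in GsMTx4, a difference of -1.20 ± 0.22 with adjusted p = 0.108 by limma. It passed after TPM rescaling, with sample weights and without GsMTx4 3, where 1 clock gene rose (Dbp) and 1 fell (Arntl). Npas2, a paralog of Clock, was 7.11, 6.1 and 6.05 against 4.44, 4.26 and 2.56 FPKM in Control and GsMTx4, and the repressors Cry1 and Nfil3 also had every GsMTx4 library below every Control library. Clock itself overlapped, at 10.7, 9.66 and 6.86 against 7.38, 10.4 and 7.18 FPKM.

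Of 16 tested clock genes (19 on the list), 1 passed, 9 lay above every Control library and 4 below. The shares over all tested genes were 4.9% and 14.8%. The counts were 6 and 4 after TPM rescaling (2.21% and 19.3% of all tested genes) and 9 and 3 by median-of-ratios scaling (9.69% and 8.75%). Ciart, 1 of the 9, stood under 1 FPKM in every Control library, so it entered only through its GsMTx4 values and could only differ upward. Without regard to the filter, 10 of the 19 members lay above every Control library and 4 below, against 3.57% and 8.85% of all 35315 genes. The list's median difference was 0.53, against -0.09 for all tested genes. The hour of collection is not given in the sources used here, and its part in these values was not tested.

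**Figure D3:**
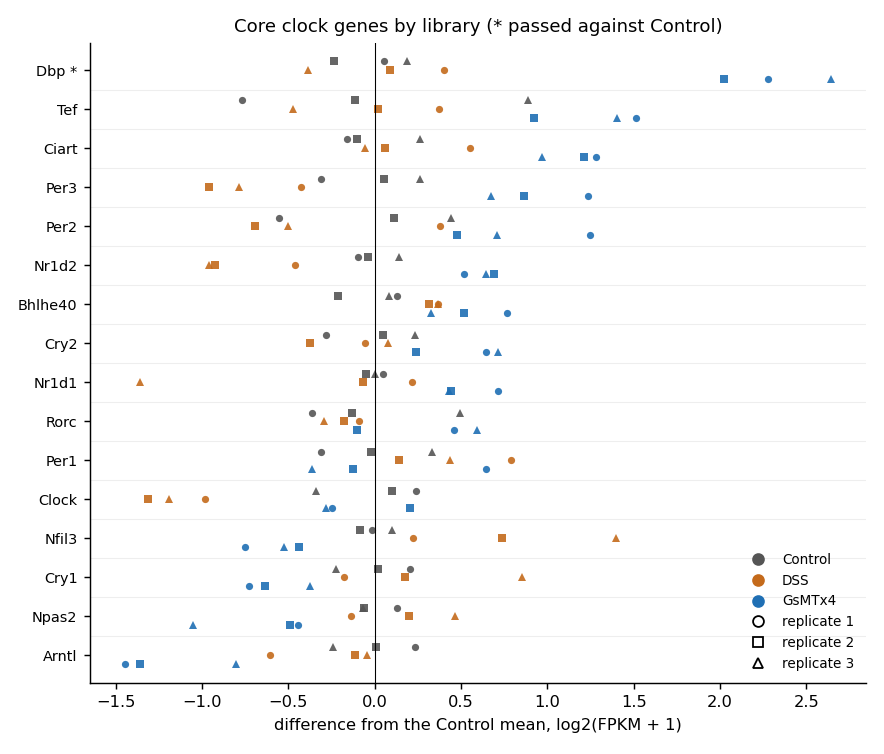
Difference of each library from the Control mean, in log2(FPKM + 1), for the 16 tested clock genes, with 1 point per library, colours for the groups and symbols for the replicates; the star marks the gene that passed. Blue GsMTx4 points lie to the right of all grey Control points for 9 genes, led by Dbp, and to the left for Arntl, Npas2, Cry1 and Nfil3.

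The promoters of 2 of these genes are printed because each holds the E-box through which the clock's activators act, although the genes lay on opposite sides of Control. The sequences are from RefSeq (GRCm38.p6), 250 bases before to 50 after the start, on the minus strand, with matches to CACGTG in capitals (the motif reads the same on both strands). Ciart lies at chr3:95882179-95882478 and Cry1 at chr10:85185005-85185304.
Ciart: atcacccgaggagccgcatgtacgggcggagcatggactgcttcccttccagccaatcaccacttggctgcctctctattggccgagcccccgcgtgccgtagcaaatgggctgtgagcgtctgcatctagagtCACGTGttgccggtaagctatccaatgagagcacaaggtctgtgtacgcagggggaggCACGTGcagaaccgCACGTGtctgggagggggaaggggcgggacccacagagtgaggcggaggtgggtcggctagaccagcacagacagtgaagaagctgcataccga
Cry1: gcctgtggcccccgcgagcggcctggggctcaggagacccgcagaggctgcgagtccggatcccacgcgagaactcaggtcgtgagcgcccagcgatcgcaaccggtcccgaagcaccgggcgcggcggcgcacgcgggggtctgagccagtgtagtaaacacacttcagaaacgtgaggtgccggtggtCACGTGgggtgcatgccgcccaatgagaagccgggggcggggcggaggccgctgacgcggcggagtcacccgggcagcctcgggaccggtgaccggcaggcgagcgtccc
Ciart, higher in GsMTx4, holds 3 matches, and Cry1, lower in GsMTx4, holds 1. Promoters were found for 13 tested clock genes, and 4 of these held the motif (Ciart, Cry1, Per1 and Tef), in 27.8% of their 18 promoters against 7.15% of all 32851 promoters. The D-box TTANGTAA, which Dbp binds, was found on either strand in 5.56% of the clock promoters (Per3) and 2.32% of all promoters. A match describes these letters in this window only.

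Several genes known from colitis stood above normal colon, and 3 of them rose: Chil3, Duoxa2 and Ly6g. Chil3, a chitinase-like protein of activated macrophages and neutrophils, stood at 1.77, 0.373 and 0.773 FPKM in Control and 10.9, 9 and 18.3 FPKM in GsMTx4, a rise of 2.80 ± 0.38 (adjusted p = 0.0234 by limma). The call was lost in several leave-one-out fits, with adjusted p of 0.133 without Control 2, 0.126 without Control 3, 0.054 without DSS 2, 0.0879 without GsMTx4 1 and 0.0611 without GsMTx4 2. In DSS it was 12, 23.1 and 30.3 FPKM, overlapping GsMTx4. Duoxa2, the maturation factor of the hydrogen peroxide source Duox2, was 17.7, 10.5 and 12.4 FPKM in Control, 75.5, 43.5 and 41.1 FPKM in GsMTx4 and 82.2, 95.3 and 99.8 FPKM in DSS. It rose by 1.88 ± 0.26 (adjusted p = 0.0234 by limma, but 0.142 without Control 2, 0.126 without Control 3, 0.054 without DSS 2 and 0.0683 without GsMTx4 2). All 3 GsMTx4 libraries lay between the Control and the DSS libraries.

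Ly6g, a surface protein gene used as a neutrophil marker, rose by 2.21 ± 0.33 (adjusted p = 0.0386 by limma). The call held without DSS 2 or DSS 3 and was lost without any other library, with adjusted p up to 0.17. Ly6g was 67.4, 88.8 and 87.2 FPKM in Control and 353, 278 and 544 FPKM in GsMTx4. In Control it stood far above the other neutrophil genes given below, and which cells its reads came from was not tested. Other neutrophil genes had another order over the libraries. The calprotectin genes S100a8 (11.2, 0.996 and 0.893 FPKM) and S100a9 (25.3, 4.56 and 1.36 FPKM) were highest in GsMTx4 1, where Ly6g was not the highest, and were at most 0.191 FPKM in Control. The granule genes Mpo and Ngp were listed at 0 in every Control and GsMTx4 library. Another granule gene, Ltf, was 0.329, 0.295 and 0.203 FPKM in Control and 7.02, 1.42 and 3.16 FPKM in GsMTx4 (adjusted p = 0.313 by limma). Of the 15 neutrophil genes measured, 5 were tested, 2 of them only through GsMTx4 values, and 1 passed. Without regard to the filter, 7 of the 15 lay above every Control library and 0 below. The shares of all 35315 genes were 3.57% and 8.85%.

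The gene 2010109I03Rik, chosen after its values were seen, rose by 2.07 ± 0.23 (adjusted p = 0.00826 by limma, up to 0.0627 without Control 2 or Control 3), from 10.1, 6.65 and 7.72 FPKM in Control to 46, 35.3 and 31.3 FPKM in GsMTx4. It lies on chromosome 15, as Ly6g does, and stood at 122, 159 and 92.1 FPKM in DSS.

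Besides Duoxa2, 4 antimicrobial and acute-phase genes lay above every Control library without passing. The serum amyloid gene Saa1, an acute-phase protein of gut epithelium and liver, was 169.5, 239 and 307 FPKM in Control and 908, 667 and 954 FPKM in GsMTx4 (1.84 ± 0.31, adjusted p = 0.0723 by limma), overlapping DSS (913, 928 and 498 FPKM). The inducible nitric oxide synthase gene Nos2 was 2.01, 1.16 and 2.22 FPKM in Control and 80.6, 17.9 and 8.83 FPKM in GsMTx4, so that GsMTx4 1 stood above all 3 DSS libraries (48.7, 74.2 and 74 FPKM) and the other 2 below them. Its difference was 3.17 ± 0.63 (adjusted p = 0.141 by limma, 0.0249 without GsMTx4 3). Lrg1, an acute-phase glycoprotein, was 1.4, 1.77 and 1.83 FPKM in Control and 66.1, 33.1 and 4.32 FPKM in GsMTx4. Of 16 tested genes of this list 5 lay above every Control library (31.2%) and 1 below (6.25%), against 4.9% and 14.8% of all tested genes. The member below was Reg4 (229.8, 215 and 196 against 38.4, 127 and 174 FPKM). Without GsMTx4 3, 4 members passed (Duoxa2, Lrg1, Nos2 and Pla2g2a), and without DSS 3, Saa1 did (adjusted p = 0.041, limma).

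No pro-inflammatory cytokine passed, and 5 of 6 tested had a positive difference. Tnf was 3.98, 3.08 and 4.1 FPKM in Control and 11.1, 4.72 and 7.8 FPKM in GsMTx4 (0.85 ± 0.36, adjusted p = 0.462 by limma), and Il1b 5.81, 4.14 and 4.24 against 11.9, 8.09 and 10.7 FPKM (0.97 ± 0.55, adjusted p = 0.578, limma). The groups of both genes did not overlap, yet neither passed. Il18, an interleukin made by the epithelium, was 50.7, 57.4 and 45.9 against 108, 108 and 70.3 FPKM (adjusted p = 0.215 by limma, 0.0398 without GsMTx4 3). Il6 was too low to test, at most 0.104 FPKM in the 6 libraries. Of 6 tested cytokines 4 lay above every Control library, against 4.9% of all tested genes, and 2 did after TPM rescaling, against 2.21%. The T cell cytokine gene Ifng had a negative difference (-0.39 ± 0.39, adjusted p = 0.765 by limma). Among 18 chemokines 4 lay above (22.2%) and 1 below (5.56%), against 4.9% and 14.8% of all tested genes. Those with the smallest p were the monocyte attractant Ccl7 at 16.6, 7.89 and 8.03 against 33.4, 31.8 and 38 FPKM (1.65 ± 0.31, adjusted p = 0.108 by limma, 0.0361 without Control 1) and Ccl20 at 2.39, 1.03 and 2.92 against 12, 3.53 and 4.5 FPKM.

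Socs3, which restrains signalling through STAT3, was 11.5, 11.1 and 11.8 FPKM in Control and 75.1, 86.3 and 18 FPKM in GsMTx4. GsMTx4 2 lay in the DSS range (101, 109 and 81.8 FPKM), GsMTx4 1 just under it and GsMTx4 3 near Control, and the difference of 2.01 ± 0.48 had adjusted p = 0.227 by limma, and 0.000582 without GsMTx4 3. The list of inflammasome, NF-kB and toll-like receptor genes had 22 tested members, and 1 passed, Nek7, which fell. Of the 22, 6 lay above every Control library and 2 below (1 and 4 after TPM rescaling). The shares of all tested genes were 4.9% and 14.8% (2.21% and 19.3% after TPM rescaling). The epithelial repair list had 7 of 19 tested members above every Control library (36.8%), 1 below (5.26%) and none that passed. Its leading members were the annexin genes Anxa8 (18, 10.1 and 24.2 against 135, 36.2 and 36.8 FPKM, adjusted p = 0.287 by limma) and Anxa1 (60.6, 44.7 and 43.7 against 85.3, 73 and 83.2 FPKM, adjusted p = 0.289, limma). Emp1, an epithelial membrane protein gene of the same list chosen after its values were seen, was the member below, at 8.46, 12 and 9.03 against 6.44, 5.61 and 4.26 FPKM with 72.6, 138 and 169 FPKM in DSS.

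Interferon-response genes were mostly below normal colon. These genes carry antiviral effectors and sensors switched on when interferons bind their receptors. Of 31 tested members 29 had a negative difference and 18 lay below every Control library, against 14.8% of all tested genes, and none passed. The count below every Control library was 22 after TPM rescaling, 12 after median-of-ratios scaling, 17 after quantile normalization and 28 without GsMTx4 3. The shares of all tested genes under those settings were 19.3%, 8.75%, 9.71% and 23.6%. The median difference was -0.59 over the list and -0.09 over all tested genes.

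The effectors with the smallest p were Mx2 and Oasl2. Mx2, an antiviral GTPase gene that the annotation calls a polymorphic pseudogene, was 6.67, 5.63 and 5.56 FPKM in Control and 1.67, 2.36 and 2.39 FPKM in GsMTx4 (-1.15 ± 0.19, adjusted p = 0.0589 by limma). It passed in 3 of 20 alternatives: without DSS 3 (adjusted p = 0.0273), with sample weights and after correction for transcript length and GC content (0.0339, limma). Oasl2, of the oligoadenylate synthetase family, was 77.7, 85.2 and 99.8 FPKM in Control and 42.8, 42.8 and 41.9 FPKM in GsMTx4 (-1.02 ± 0.18, adjusted p = 0.0928 by limma, 0.0374 without DSS 2). The 3 GsMTx4 values of Oasl2 were nearly equal and lay between the Control and the DSS libraries (22.9, 37 and 25.4 FPKM). The GsMTx4 and DSS values overlapped for Mx1 and Oas3, with Mx1 at 20.7, 21.3 and 34.1 FPKM in Control and 6.42, 9.8 and 11.9 FPKM in GsMTx4.

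The GsMTx4 libraries differed among themselves in this list. The ubiquitin-like effector Isg15 was 442, 434 and 481 FPKM in Control and 93.2, 152 and 466 FPKM in GsMTx4, and Ifit3, which binds foreign RNA, was 53.4, 47.5 and 49.1 against 21.7, 30.3 and 95.5 FPKM. GsMTx4 3 stood within the Control range for Isg15 and above it for Ifit3, while GsMTx4 1 and 2 stood below Control in both. The interferon-gamma-responsive genes Gbp2 (247, 132 and 472 FPKM) and Igtp (122, 85 and 251 FPKM) were also highest in GsMTx4 3. The list's median difference was -0.77, -0.80 and -0.21 in GsMTx4 1, 2 and 3. By contrast Oasl2, Oas3, Ddx58 and Stat2 were below Control in all 3 libraries by similar amounts.

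**Figure D4:**
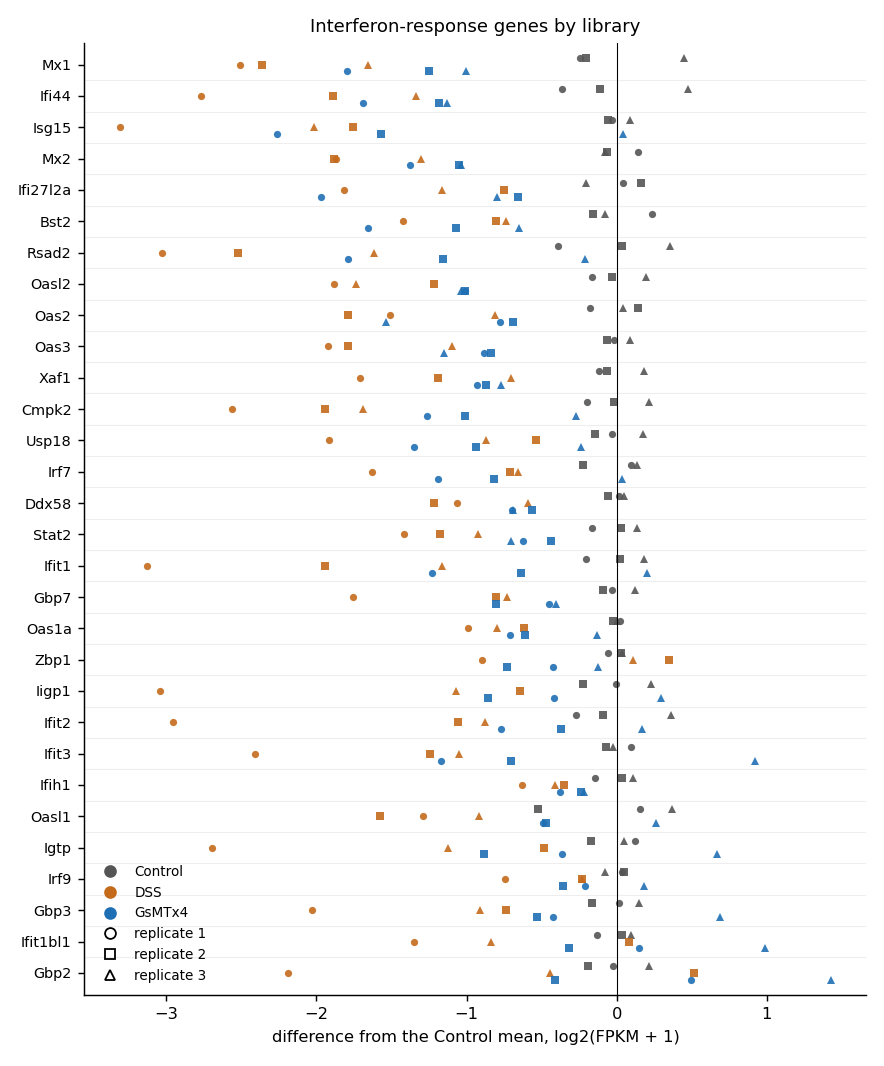
Difference of each library from the Control mean, in log2(FPKM + 1), for tested interferon-response genes, with 1 point per library, colours for the groups and symbols for the replicates. The blue GsMTx4 points lie left of all grey Control points for most of the genes drawn, among them Mx2, Oasl2 and Oas3, and the blue triangles of GsMTx4 3 lie right of those of GsMTx4 1 and 2 for Isg15, Ifit3 and Gbp2.

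Interferons act on these genes through a stretch called the interferon-stimulated response element (ISRE), and 4 promoters are printed to show it in members that lay below Control in every library (Bst2 and Oas3) and in members whose groups overlapped (Isg15 and Ifit3). All are from RefSeq (GRCm38.p6), 250 bases before to 50 after the start. Matches on either strand to GAAA, 2 bases of any kind and GAAA again are in capitals, and matches that overlap run together. Bst2 (chr8:71537423-71537722, minus strand) encodes tetherin, which holds viruses at the cell surface. Oas3 (chr5:120777610-120777909, minus strand) activates RNA decay on double-stranded RNA. Isg15 lies at chr4:156200769-156201068 on the minus strand and Ifit3 at chr19:34583279-34583578 on the plus strand.
Bst2: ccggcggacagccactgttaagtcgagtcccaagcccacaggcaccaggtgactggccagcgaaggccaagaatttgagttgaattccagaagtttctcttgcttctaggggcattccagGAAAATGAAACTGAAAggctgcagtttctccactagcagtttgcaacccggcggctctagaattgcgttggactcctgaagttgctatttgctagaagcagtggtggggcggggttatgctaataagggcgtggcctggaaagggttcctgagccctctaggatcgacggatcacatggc
Oas3: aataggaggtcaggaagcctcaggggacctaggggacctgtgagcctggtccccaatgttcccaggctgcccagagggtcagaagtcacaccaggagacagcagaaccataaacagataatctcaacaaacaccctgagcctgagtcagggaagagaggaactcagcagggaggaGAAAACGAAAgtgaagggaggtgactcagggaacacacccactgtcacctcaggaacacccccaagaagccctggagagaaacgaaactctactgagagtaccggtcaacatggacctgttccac
Isg15: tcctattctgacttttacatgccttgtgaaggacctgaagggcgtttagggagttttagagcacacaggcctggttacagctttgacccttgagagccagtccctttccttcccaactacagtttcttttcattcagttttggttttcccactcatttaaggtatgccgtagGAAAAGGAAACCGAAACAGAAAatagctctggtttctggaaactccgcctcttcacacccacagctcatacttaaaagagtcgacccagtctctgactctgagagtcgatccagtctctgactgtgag
Ifit3: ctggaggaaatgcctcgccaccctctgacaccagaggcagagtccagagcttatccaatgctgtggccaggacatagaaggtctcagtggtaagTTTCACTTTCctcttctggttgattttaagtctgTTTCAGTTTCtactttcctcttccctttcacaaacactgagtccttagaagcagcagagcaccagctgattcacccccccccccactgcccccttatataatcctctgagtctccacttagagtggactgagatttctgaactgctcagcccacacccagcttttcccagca
The element stands in genes of both kinds. Promoters were found for 23 tested members, and 15 of these held it, in 59.3% of their 27 promoters, against 3.44% of all 32851 promoters of that length. Bst2 itself was 178, 135 and 143 FPKM in Control and 47.2, 71.5 and 95.6 FPKM in GsMTx4 (-1.13 ± 0.28, adjusted p = 0.234 by limma), and Oas3 was 32.3, 31.2 and 34.8 against 17.3, 17.9 and 14.2 FPKM (-0.96 ± 0.21, adjusted p = 0.198, limma).

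MHC class I genes, which display peptides to CD8 T cells, lay partly below Control. H2-Q7, a class Ib gene (chromosome 17, 35439155 to 35443773), fell by 0.83 (SE 0.13) on the log2 scale (adjusted p = 0.0413 by limma), from 108, 102 and 105 FPKM in Control to 55.9, 63.9 and 56.5 FPKM in GsMTx4. In DSS it was 91.1, 80.9 and 93 FPKM, so the GsMTx4 libraries were the lowest of all 9 (-0.58 ± 0.13 against DSS, adjusted p = 0.0212, limma). The call against Control was lost in 15 of 21 alternatives, including after TPM rescaling (0.0649) and without any 1 library but GsMTx4 3 (adjusted p up to 0.226). H2-Q7 shares sequence with other H2-Q genes, so its reads could have been split.

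The classical gene H2-K1 was 625, 669 and 677 FPKM in Control and 363, 393 and 395 FPKM in GsMTx4 (-0.77 ± 0.17, adjusted p = 0.199 by limma). The class Ib gene H2-T24 was 10.6, 9.7 and 11.9 against 5.43, 5.21 and 4.7 FPKM (adjusted p = 0.0723, limma), and Nlrc5, the transactivator of class I genes, 16.3, 17.7 and 21.7 against 12.3, 10.4 and 9.58 FPKM. These genes had no overlap between the groups. Of 15 tested genes of the class I and antigen processing list 7 lay below every Control library (12 without GsMTx4 3), none above and none passed; the list does not hold H2-Q7. Those counts stand against 14.8% of all tested genes, and 23.6% without GsMTx4 3. All 10 MHC class II genes overlapped Control over the 6 libraries. Without GsMTx4 3, 5 lay below every Control library, and after TPM rescaling 2 did, against 19.3% of all tested genes. Their invariant chain gene Cd74 was at 849, 685 and 789 against 598, 551 and 708 FPKM.

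Nek7, whose kinase protein is needed to assemble the NLRP3 inflammasome, was the gene with the firmest fall. It stood at 10.4, 10.1 and 9.96 FPKM in Control and 2.86, 3.09 and 2.56 FPKM in GsMTx4 (chromosome 1, 138482875 to 138620141), and fell by 1.54 (SE 0.15) on the log2 scale (adjusted p = 0.00345 by limma, 0.000682 to 0.0298 over 21 alternatives). DSS was at 3.26, 3.42 and 5.1 FPKM, near GsMTx4 (-0.34 ± 0.15, adjusted p = 0.174, limma). Pdzd7, a PDZ-domain scaffold gene known from the hair cells of the ear, fell by 1.24 (SE 0.19) (adjusted p = 0.0442 by limma, but up to 0.229 without any 1 library except GsMTx4 3). It was 5.51, 6.64 and 5.18 FPKM in Control, 1.15, 2.12 and 2.48 FPKM in GsMTx4 and 0.398, 0.195 and 0.324 FPKM in DSS, so that the GsMTx4 libraries lay between the other groups.

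Of the other genes that fell, 4 carry clone or predicted names and were chosen after their values were seen. The ribosomal RNA entry CT010467.1 stood at 4221, 4487 and 5329.6 FPKM in Control and 810.2, 818 and 1393 FPKM in GsMTx4, and Gm23935, annotated as a microRNA gene, at 1600.3, 2166 and 2295 against 325, 452 and 539 FPKM. Of the fits that left out 1 library, CT010467.1 kept its call in those without DSS 3 or GsMTx4 3 (adjusted p = 0.0442 by limma, up to 0.217), and Gm23935 lost it without Control 2 or 3 or GsMTx4 1 or 2 (adjusted p = 0.0229, up to 0.144). Gm15368, a pseudogene, stood at 1.67, 1.74 and 1.31 against 0.254, 0.129 and 0.271 FPKM and lost its call without any Control library, GsMTx4 1 or GsMTx4 2 (adjusted p = 0.0229, up to 0.158, limma). K230015D01Rik, an antisense RNA, stood at 3.69, 3.34 and 3.95 against 0.94, 1.58 and 1.34 FPKM and lost it without any 1 library (adjusted p = 0.0386, up to 0.203, limma). Whether the authors' counting used strand is not given in the sources used here, so K230015D01Rik may share reads with the gene on the other strand.

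The next genes by p among those below every Control library did not pass. Sgk1 (chromosome 10, 21882184 to 21999903), the kinase that aldosterone and glucocorticoids induce to hold sodium channels at the membrane, was 14.2, 24.6 and 13.1 FPKM in Control, 22.6, 27.2 and 10.8 FPKM in DSS and 3.33, 3.23 and 3.75 FPKM in GsMTx4. The GsMTx4 libraries were thus the lowest of the series (-1.99 ± 0.33, adjusted p = 0.0648 by limma), and Sgk1 passed in a fit of the 6 libraries alone (0.0395), after TPM rescaling (0.036) and without DSS 3 (0.017). Tcf7l1, a Wnt pathway repressor, was 19.5, 16.7 and 17.2 against 8.01, 7.79 and 5.21 FPKM (adjusted p = 0.0664, limma). Cttnbp2, a cortactin-binding protein gene, was 3.87, 3.04 and 3.38 against 0.576, 0.738 and 1.54 FPKM (adjusted p = 0.0723, limma, 0.0141 without GsMTx4 3). Lgals3bp, a secreted glycoprotein that binds galectins, was 202, 188 and 191 against 81.3, 109 and 83.6 FPKM (adjusted p = 0.0877, limma).

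Sgk1 leads 2 of the lists. Of 14 tested glucocorticoid-responsive genes none passed, 2 lay below every Control library and none above. Those below were 14.3% of the list, about the 14.8% of all tested genes. Fkbp5, a receptor co-chaperone and glucocorticoid target, was 9.16, 16.4 and 14.7 FPKM in Control and 9.22, 7.17 and 5.6 FPKM in GsMTx4 (adjusted p = 0.381 by limma). Of 24 tested ion and water transport genes none passed, 6 lay below (25%) and 1 above (4.17%), against 14.8% and 4.9% of all tested genes. The bicarbonate channel gene Best2 was 21.3, 22.9 and 26.3 against 11.2, 12.4 and 14.9 FPKM (-0.83 ± 0.17, adjusted p = 0.176, limma). Clca4b, chosen after its values were seen, was the member above, at 39.3, 10.6 and 17.4 FPKM in Control and 928, 395 and 50.4 FPKM in GsMTx4. It was highest in GsMTx4 1 and lowest in GsMTx4 3, as Nos2 and Lrg1 were, and it passed only without GsMTx4 3 among the fits that left out a library.

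No gene of the mature epithelial lists passed. Among 27 tested colonocyte genes 2 lay above every Control library and 4 below (7.41% and 14.8%), near the shares of all tested genes (4.9% and 14.8%). The fatty acid carrier gene Fabp2 was 44, 58.5 and 44.7 FPKM in Control and 4.35, 16.7 and 12.3 FPKM in GsMTx4 (-2.20 ± 0.52, adjusted p = 0.218 by limma). Among 18 goblet cell and mucus genes 8 lay below (5 by median-of-ratios scaling, where 8.75% of all tested genes did) and 2 above, with a median of -0.54. Atoh1, the transcription factor that commits cells to the secretory lineage, was 27.5, 37 and 34.5 against 14.9, 17.4 and 24.1 FPKM (adjusted p = 0.297, limma). The membrane mucin gene Muc1 was on the other side, at 3.53, 3.5 and 3.2 against 7.91, 6.01 and 5.57 FPKM (adjusted p = 0.25, limma). Muc2, the main secreted mucin, was at 35.9 FPKM in GsMTx4 3, the library with low values of long genes, and within 156 to 242 FPKM in the other 5 libraries. After correction for transcript length and GC content the list's median was -0.46.

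Crypt genes set GsMTx4 2 apart from the other GsMTx4 libraries. Of 14 tested stem cell genes 4 lay below every Control library (28.6%, against 14.8% of all tested genes), none above, and none passed. Ascl2, a stem cell transcription factor, was 3.22, 4.77 and 5.05 FPKM in Control and 0.107, 2.25 and 2.85 FPKM in GsMTx4 (adjusted p = 0.382 by limma), and Ephb3, a Wnt target that positions crypt cells, 5.54, 4.73 and 6.41 against 1.74, 3.65 and 3.06 FPKM. The list's median difference was -0.79, 0.10 and -0.59 in GsMTx4 1, 2 and 3. Lgr5, which marks the crypt base stem cells, did not reach the filter, at 0.975, 0.84 and 1.01 FPKM in Control and 0.0275, 0.534 and 0.244 FPKM in GsMTx4. All 32 DNA replication and mitosis genes had a negative difference, but only 1 lay below every Control library, the mitotic kinase gene Plk1 (33.9, 33 and 29.9 against 15.6, 25.9 and 12.6 FPKM, adjusted p = 0.287, limma). Their median difference was -0.74, 0.16 and -0.26 in GsMTx4 1, 2 and 3, so GsMTx4 2 stood above the Control mean.

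Regional genes of the colon differed between libraries of the same group, which touches each epithelial comparison. Hoxd13, a marker of the distal end chosen after its values were seen, ran at 56.4, 4.73 and 8.23 FPKM in Control and 78.4, 28.4 and 76 FPKM in GsMTx4. Nxpe2, a gene of the distal colon surface, was 65.5, 85.8 and 84.1 FPKM in Control and 11.9, 41 and 31 FPKM in GsMTx4 (-1.61 ± 0.40, adjusted p = 0.234 by limma), with 2.78, 1.15 and 1.83 FPKM in DSS. Cdx2, the intestinal identity factor, was 30.3, 44.3 and 30.1 against 5.21, 32.7 and 5.89 FPKM, low in GsMTx4 1 and 3. Of 11 tested position genes 1 lay above (9.09%) and 2 below (18.2%), and none passed. Of 24 junction genes 1 lay above (4.17%) and 4 below (16.7%), about the 4.9% and 14.8% of all tested genes. The tight junction gene Cldn23 (22.9, 22.3 and 26.5 against 13.1, 13.5 and 17 FPKM) had the smallest p (adjusted p = 0.234, limma), ahead of plakoglobin (Jup, 30.8, 29.1 and 29.5 against 25.8, 20.3 and 13.8 FPKM).

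All 23 tested cholesterol synthesis genes had a positive difference and 8 lay above every Control library, against 4.9% of all tested genes, yet none passed. Insig1, the sensor that holds SREBP in the endoplasmic reticulum, was 24.4, 26.6 and 32.7 FPKM in Control and 49.5, 45.1 and 40.0 FPKM in GsMTx4 (0.67 ± 0.19, adjusted p = 0.287 by limma). The epoxidase gene Sqle was 22.6, 22.7 and 17.3 against 37.4, 35.7 and 27 FPKM (adjusted p = 0.354, limma). The count above every Control library was 1 after TPM rescaling (2.21% of all tested genes), 14 after median-of-ratios scaling (9.69%) and 15 without GsMTx4 3 (13.1%), so the list's place depends on scaling.

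Of 23 fatty acid oxidation and ketogenesis genes 1 passed, Fabp1, which was also the 1 above (4.35%), and 5 lay below (21.7%). The shares of all tested genes were 4.9% and 14.8%. Fabp1 entered only through its GsMTx4 values and could only differ upward. Of the 22 tested members with a Control library at 1 FPKM or more, none passed. Of 15 fatty acid synthesis genes 1 lay above and 1 below (6.67% each). The desaturase gene Scd2 was 76.1, 36.5 and 27.5 against 92.6, 102 and 63.7 FPKM. All 13 mitochondrially encoded mRNAs had a positive difference and 8 lay above every Control library, against 4.9% of all tested genes, with none passing. By quantile normalization 5 did, against 8.97%, and the list's median was 0.22 in place of 0.51. mt-Nd5, a subunit gene of respiratory complex I, was 643, 811 and 670.1 FPKM in Control and 1249, 1435 and 1445 FPKM in GsMTx4 (0.96 ± 0.23, adjusted p = 0.215 by limma). The list's median difference was 0.34, 0.45 and 0.98 in GsMTx4 1, 2 and 3, and its fitted median was 0.54 after correction for transcript length and GC content.

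Stress and detoxification lists held no passing gene. Of 23 hypoxia and glycolysis genes 9 lay above every Control library and 2 below. After TPM rescaling the counts were 4 and 2, against 2.21% and 19.3% of all tested genes. Hk2 alone of this list passed without GsMTx4 3. Hif1a, the oxygen-regulated transcription factor, was 32.8, 36.3 and 27.7 FPKM in Control and 60.1, 65.1 and 42.7 FPKM in GsMTx4 (adjusted p = 0.251 by limma), and its brake Egln3 20.4, 14.5 and 13 against 48.5, 27.6 and 25 FPKM. Of 26 cytochrome P450 and conjugation genes 1 lay above and 6 below (13 without GsMTx4 3, where 23.6% of all tested genes did). The glutathione transferase genes Gstm1 (120.1, 144 and 110.0 against 55.9, 85.8 and 88.8 FPKM) and Gstm3 (27.3, 28.8 and 22.9 against 11.4, 20.1 and 12.6 FPKM) had the smallest p, with adjusted p = 0.279 and 0.268 by limma. Of 16 Nrf2 target genes 1 lay above and 1 below, of 22 unfolded protein response genes none and 3, and of 18 heat shock genes none and 5. The shares over all tested genes were 4.9% above and 14.8% below, about those of the Nrf2 (6.25% above) and unfolded protein response (13.6% below) lists.

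Channels and mechanical targets, the pathway GsMTx4 acts on, did not pass in transcript level. Piezo1 (chromosome 8, 122481698 to 122551329), the stretch-gated cation channel, was 4.29, 4.77 and 4.98 FPKM in Control and 5.4, 4.64 and 2.11 FPKM in GsMTx4 (-0.23 ± 0.31, adjusted p = 0.825 by limma). The groups overlapped, and the low value was that of GsMTx4 3. Piezo2, Trpc1 and Trpc6 were too low to test, at most 0.674, 0.435 and 0.229 FPKM in the 6 libraries. Of 9 tested mechanosensitive channel genes 1 lay below every Control library, the calcium-activated channel gene Trpm4 (11, 13.2 and 13 against 8.27, 8.51 and 6.36 FPKM, adjusted p = 0.236, limma). Of 16 tested targets of YAP and TEAD, transcription factors that respond to tissue stiffness, 1 lay above (6.25%) and 2 below (12.5%). These shares were about the 4.9% and 14.8% of all tested genes. Ccn2, a matrix-cell signalling protein gene of that list, was 11.5, 10.9 and 10.8 against 4.73, 3.86 and 9.96 FPKM (adjusted p = 0.519, limma).

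Stromal and immune cell markers showed no passing gene apart from Chil3 and Ly6g. Of 27 tested matrix and fibroblast genes 9 lay below every Control library and none above, against 14.8% and 4.9% of all tested genes. The lower count was 16 without GsMTx4 1 (19.7% of all tested genes) and 6 by median-of-ratios scaling (8.75%). The list had a median difference of -0.10, -0.48 and -0.82 in GsMTx4 1, 2 and 3. The collagen gene Col6a1 was 30.0, 40.3 and 42.8 FPKM in Control and 26.8, 22.8 and 12.5 FPKM in GsMTx4 (adjusted p = 0.357 by limma), lowest in GsMTx4 3, where long transcripts were low. Of 16 monocyte and macrophage markers 3 lay above (18.8%), and of 15 T cell, NK and innate lymphoid markers 3 lay below (20%). Among the latter the interleukin receptor gene Il7r (1.45, 1.86 and 1.83 against 0.65, 1.02 and 0.756 FPKM) had the smallest p (adjusted p = 0.326, limma). Of 13 B and plasma cell markers 1 lay below every Control library (7.69%), and of 16 immediate early genes 1 lay above (6.25%) and 4 below (25%). Klf2, an immediate early factor of endothelium and lymphocytes, was 9.79, 8.72 and 9.79 against 4.64, 2.56 and 6.26 FPKM (adjusted p = 0.253, limma).

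Among 12 endothelial, 14 smooth muscle and 6 enteric neuron, glia and Cajal cell markers, only the smooth muscle actin gene Acta2 lay above every Control library (109.9, 154 and 154 against 195, 162 and 249 FPKM). Among 10 enteroendocrine and tuft cell markers 1 lay below (10%, against 14.8% of all tested genes). None of 3 adipocyte markers separated the groups. The 4 tested sex-linked genes overlapped in every case, with the Y-linked gene Uty at 2.95, 2.54 and 2.43 FPKM in Control and 1.9, 3.11 and 2.12 FPKM in GsMTx4.

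**Figure D5:**
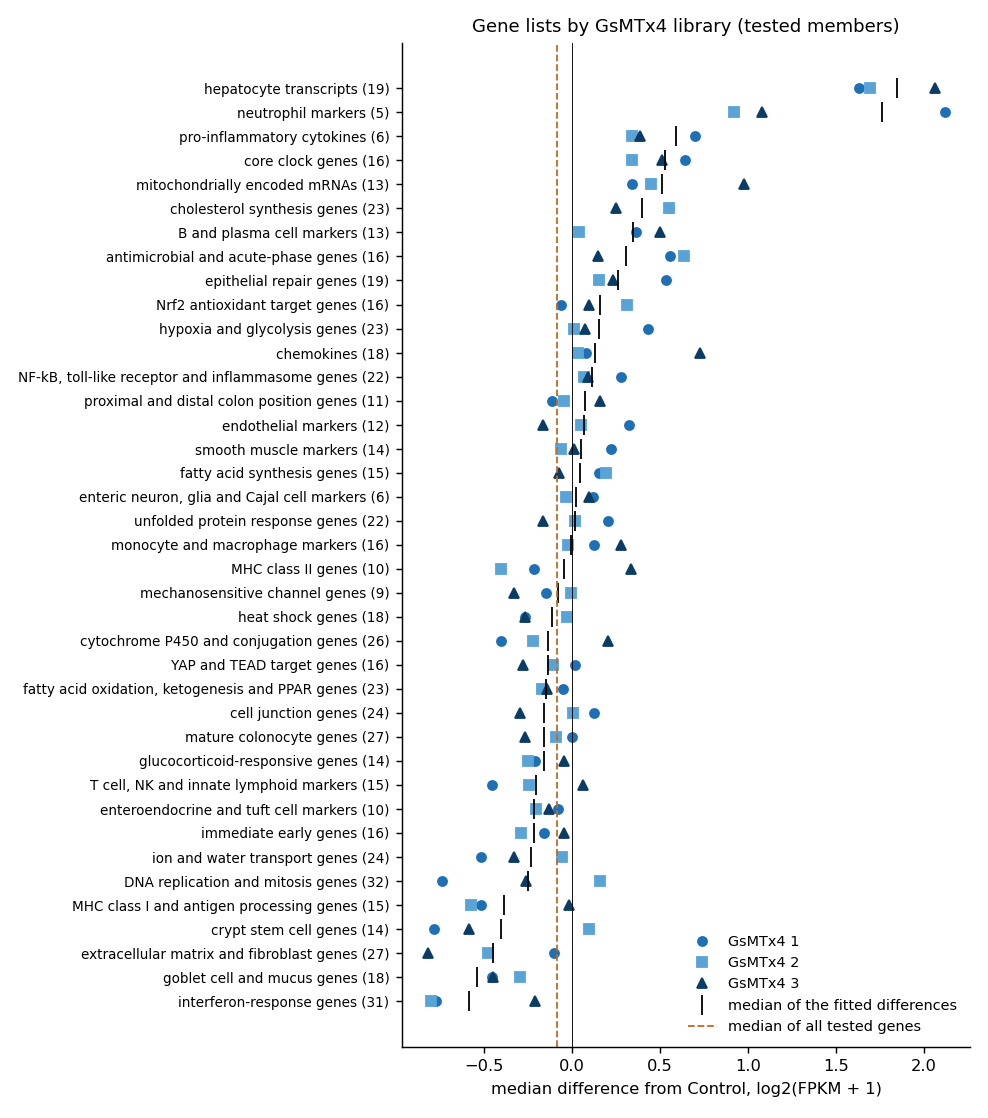
Median difference from the Control mean, in log2(FPKM + 1), over the tested members of each gene list with at least 5 tested members (number in brackets); blue symbols are the 3 GsMTx4 libraries, the black tick is the median of the fitted differences and the dashed line the median of all tested genes (-0.09). The hepatocyte list lies farthest right and the interferon-response list farthest left, and the libraries spread widely for the stem cell and proliferation lists.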

How the data were processed

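The authors deposited 1 table of FPKM values, already divided by transcript length and library size, for 35315 genes in 9 libraries of total RNA from mouse colon. The submitters' processing notes name cutadapt, FastQC and the build GRCm38, and which aligner and quantifier were run is not given in the sources used here. Groups and replicate numbers come from the titles. Positions and gene types were taken from GENCODE M21 (GRCm38), which matched 35196 genes, and promoters from RefSeq (GRCm38.p6).

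Values were transformed to log2(FPKM + 1), a scale that understates changes of low genes. Genes at 1 FPKM or more in at least 3 of the 6 GsMTx4 and Control libraries were tested with limma 3.58.1 in R 4.3.3, with a mean for each group fitted over all 9 libraries (residual degrees of freedom: 6) and a trended empirical Bayes step. Tests were two-sided, Benjamini-Hochberg adjusted over all 13816 genes, and passed at an adjusted p under 0.05. GsMTx4 against DSS was taken from the same fit and shares the GsMTx4 libraries, so its values stand beside the others as description. Genes whose groups did not overlap had all 3 GsMTx4 libraries on 1 side of all 3 Control libraries. On simulated data built from these libraries the fit found 61% of the genes given a log2 change of 1 and 88% of those given 2, with 7 false calls of 156. The changed genes were drawn only from those with a Control mean above 2 on the log2(FPKM + 1) scale, with the same noise in each group. Recovery at lower levels, where most of the genes that rose stood in Control, was not assessed.

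The 44 gene lists, the comparison and the rule for named genes were chosen with earlier results of these data known. The rule takes the 12 largest rises and falls among passing genes that did not overlap (filled to 8 by p), without predicted genes, pseudogenes and immunoglobulin or T cell receptor segments. It adds 2 members per list, those of smallest p, and all passing members where at most 5 passed, then 8 fixed genes and the 6 largest changes each way that also passed against DSS. Genes given outside this rule were chosen after their values were seen. Some genes that it selects are not reported here. Alternatives were a pseudocount of 0.1, no filter, a mean of at least 5 FPKM, a filter over 9 libraries, TPM, median-of-ratios and quantile scaling, a fit of 6 libraries, a replicate block, no trend, sample weights and each library left out. A correction for GC content and transcript length was chosen after seeing the data. matplotlib 3.10.9 drew the figures.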

Additional observations from a re-analysis of the deposited data

How the results depend on the processing

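Against 27 genes higher and 7 lower, the counts were 3 and 2 with a filter at a mean of 5 FPKM, and 92 and 83 with sample weights. The lower count was 3 after median-of-ratios scaling, 3 after quantile normalization, 3 with a pseudocount of 0.1 and 11 with no filter. Higher calls made up 79.4% of all calls, and 90% after quantile normalization. Leaving out each library in turn gave 13 to 63 genes higher and 1 to 13 lower, and all 34 genes kept their sign in every alternative. The groups of all 34 did not overlap, so leaving out a library could not have turned a sign. Of these 34, 13 passed in every analysis that tested them, most of them genes that entered only through their GsMTx4 values. No named gene changed sign with a call in either analysis, and 17 named genes that did not pass did so in at least 1 alternative. The median difference of all genes was -0.09, and moved by -0.11 after TPM rescaling and 0.09 after median-of-ratios scaling. With the replicate number as a block, 21 genes were higher and 7 lower. Same-numbered Control and GsMTx4 libraries had deviations correlated at -0.0978, 0.0918 and -0.0569, and not every library correlated best with its own number. The labels give no more than the shared number, and these few correlations cannot decide whether same-numbered samples were handled together. Depth is unknown, so counting error at the low FPKM of the plasma protein genes could not be assessed. The cause of the changes in these counts was not tested.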
